A study of Arabidopsis thaliana with 4 samples.

Results

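High-scoring SHL regions in pseudogenes numbered 318, of 2186 common regions with peaks in both replicates of an Arabidopsis thaliana SHL ChIP-seq experiment. A common region was a set of overlapping nuclear peaks (1 bp or more) with at least 1 peak of each replicate. It counted as high-scoring when its best peak had a score of 100 or more in each replicate, which held for 932 regions (42.6% of the common regions). It entered the set described here when its midpoint lay in a gene annotated as pseudogene or transcribed pseudogene and in no protein-coding gene body, which held for 34.1% of the high-scoring regions. The regions were thus chosen by their scores and positions, and both are given below as a description, with no test. The same placement held for 91 of the 1092 low-scoring regions, whose peaks all scored under 100 (8.33%). Common regions that scored 100 or more in only 1 replicate are in neither class, and 38 of them had this placement.

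The samples were whole seedlings of the Col-0 accession, taken after about 10 days on plates in long days (16 h light, 8 h dark). All of them, inputs included, had the ebs shl background and carried SHL with an HA tag driven by the native promoter. An antibody against HA recovered the bound DNA in 2 ChIP samples, and 2 input samples had no antibody. Each ChIP sample had a peak list, while the input samples were not analysed here. There was no group with another genotype or treatment, so no comparison between conditions was possible, and nothing in the labels says whether the replicates were separate cultures.

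SHORT LIFE (SHL) is a plant chromatin reader with a BAH domain and a PHD finger, modules that bind modified tails of histone H3. Its homologue EBS has the same domain pair, and the pair is known for the control of flowering time. Pseudogenes are gene-like loci that no longer encode a working protein. In Arabidopsis many loci without a working protein lie in the gene-poor heterochromatin around the centromeres, together with transposable elements. The gene table used here has no biotype for transposable elements and names only a few of them by symbol, so for most of the pseudogenes described whether they belong to such elements was not tested.

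Replicate 1 listed 3668 nuclear peaks and replicate 2 listed 3487, and 28.9% of the peaks scored 100 or more in each list. Scores are the authors' own, from their peak caller, and are used only within a list. Exactly 3100 was the score of 225 nuclear peaks of replicate 1 and of 195 of replicate 2. Scores of 3100 or more, called the ceiling here, were not read as an order of strength. Read depth is unknown from these lists.

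Among the 318 regions, the score ran from 111.1 to 3198 in replicate 1, with a median of 874.3 and quartiles of 331.2 and 2329. In replicate 2 it ran from 100 to 3204, with a median of 741.6 and quartiles of 270.4 and 1866. The regions thus covered the whole range above the limit in both lists. Both scores were at the ceiling in 53 regions (16.7%). Of the 300 high-scoring regions in protein-coding genes, 91 were at the ceiling in both (30.3%), and of the 301 without an annotated gene, 55 were (18.3%). The median score in protein-coding genes was 1235 in replicate 1 and 1112 in replicate 2, and without an annotated gene it was 1187 and 993.9. The median in pseudogenes was thus the lowest of these in both lists, but the lower quartile in protein-coding genes was lower still, at 279.0 and 249.2, and no difference was tested.

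The replicates ranked the regions much alike. Across the 318 regions, Spearman's rho between the scores of the lists was 0.97, and it was 0.95 over the 257 regions under the ceiling in both lists. As a share of all nuclear peaks of its list, the percentile of a region differed between replicates by a median of 0.916 percentage points. High-scoring regions in protein-coding genes (rho 0.96, median difference 0.717) and without an annotated gene (rho 0.97, median difference 0.81) were ranked as alike. For the 91 low-scoring regions in pseudogenes rho was 0.39 and the median difference was 15.6, over a range of scores that their definition confines. The rule also confines the high-scoring regions, to the top 28.9% of the peaks of each list. Their small differences of percentile are thus partly set by the rule, and low-scoring regions could differ over a wider range of percentiles. These are correlations across regions of the same libraries and carry no p. The best peaks of both replicates shared a median of 81.3% of their joined width, with a lower quartile of 70.5%. The median was 78.5% in protein-coding genes, 79.9% without an annotated gene and 74.1% in the low-scoring regions in pseudogenes. A region consisted of 1 peak in each list in 294 cases (92.5%).

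**Figure D1:**
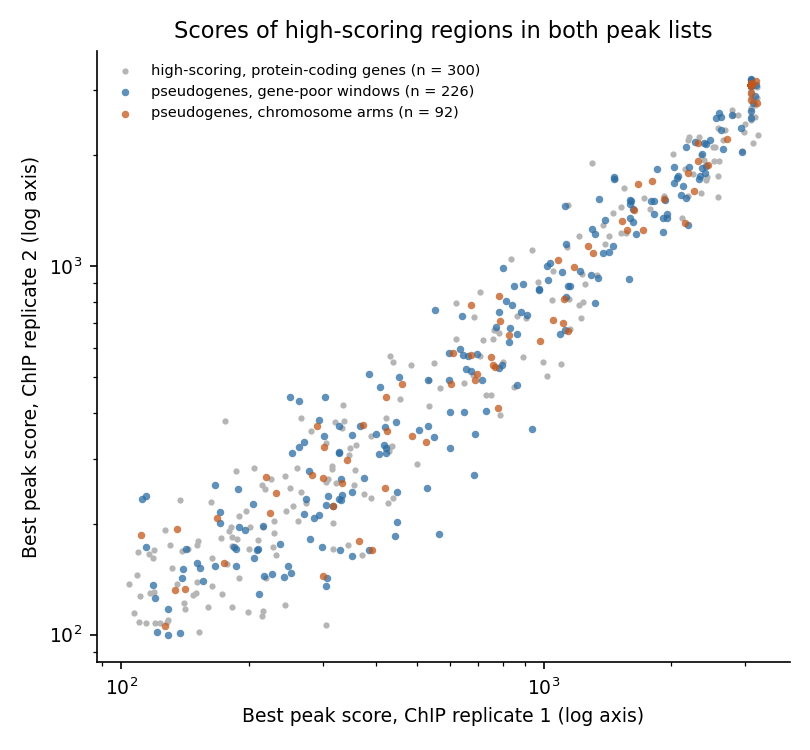
Best peak score of each high-scoring region in ChIP replicate 1 (horizontal) and replicate 2 (vertical), both on log axes. Coloured points are the 318 regions in pseudogenes (226 in gene-poor windows, 92 on chromosome arms), grey points the 300 in protein-coding genes. The points follow one diagonal and pile up at 3100 and above.

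Few high-scoring peaks in pseudogenes belonged to 1 replicate alone. Replicate 1 had 348 peaks of 100 or more with the midpoint in a pseudogene and in no protein-coding gene, and 346 of them (99.4%) overlapped a peak of replicate 2. In replicate 2 there were 340 such peaks, and all 340 overlapped a peak of replicate 1 (exact 95% interval 98.9 to 100%). The partner also scored at least 100 for 321 of the peaks of replicate 1 (92.2%) and 325 of those of replicate 2 (95.6%). For peaks in protein-coding genes the shares with any partner were 99.4% and 100%, and those with a partner of at least 100 were 84.6% and 89.6%. For peaks without an annotated gene the latter were 93.4% and 96.2%.

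Near the score limit the regions graded into those left out. The region in AT4G07530 (chromosome 4, 4365213 to 4365741) scored 128.8 in replicate 1 and 100 in replicate 2. AT3G42993 (chromosome 3, 15032463 to 15033153) scored 137.8 and 101.0, and AT5G29022 (chromosome 5, 11047005 to 11048247) scored 121.4 and 101.6. All were held back by replicate 2. Just outside, AT4G08078 (chromosome 4, 4962960 to 4964172) scored 97.8 and 183.3. AT2G11950 (chromosome 2, 4822225 to 4823617) scored 139.3 and 95.6, and AT5G43405 (chromosome 5, 17432198 to 17433796) scored 132.0 and 92.3. Only 26 regions had a lower score under 150.

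With ties ordered by position, the regions ranked highest in both lists lay in pseudogenes known by a locus identifier alone. This was the usual case, as only 4 of the 295 pseudogenes with a midpoint carried a symbol. Coordinates are those of the TAIR10 build, and the table places a region in a pseudogene body without giving exons or strand. The region in AT1G51175 (chromosome 1, 18969229 to 18973181) scored 3173 in replicate 1 and 3175 in replicate 2. One of its neighbours among protein-coding genes and pseudogenes is PLT2, which encodes a transcription factor of the root stem cell niche. AT3G33115, in a gene-poor window and between other pseudogenes, held one that spanned 13883145 to 13887095 of chromosome 3 and scored 3179 and 3100. The region in AT3G33115 also had a lower score of 3100. It ranked above those that follow only because 3100 was percentile 99.7 in replicate 2 and 99.6 in replicate 1. All these scores were at the ceiling, so the ranks are no order of strength. The others named were tied, with a lower score of 3100 and a lower percentile of 99.6. They were ordered by position alone, so they fell on chromosome 1. They were AT1G05135 (1477065 to 1480317), the transcribed pseudogene among them, AT1G20390 (7065221 to 7076558), AT1G34590 (12666106 to 12668485), AT1G41790 (15546790 to 15550916), AT1G44060 (16744533 to 16746380), AT1G46624 (17255115 to 17256689), AT1G47860 (17620063 to 17623505) and AT1G60020 (22101624 to 22103606). The region in SADHU6-1 (AT3G02515), a pseudogene with a symbol, was tied with them at 3100 in both lists. It was left out of this group by position alone.

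On the other chromosomes the highest-ranked regions were also at the ceiling, with ties again ordered by position. On chromosomes 2 and 5 other regions, such as those in AT2G15410 and AT5G29020, also scored 3100 in both lists. The regions named first on these chromosomes thus came first by position alone. AT2G06180 held the first of chromosome 2, at 2419117 to 2422974, in a gene-poor window and between other pseudogenes. AT4G03920 held the first of chromosome 4, at 1854851 to 1857899, on an arm and likewise between pseudogenes. On chromosome 5 it was AT5G01335, at 134489 to 137241. This pseudogene lies on an arm between PDC3, for a pyruvate decarboxylase, and mSFC1, for a carrier of the mitochondrial membrane, and the edge of its region touched the body of PDC3. In all, 29 of the 318 regions (9.12%) touched a protein-coding body although the midpoint lay outside it.

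Only 4 of the 295 pseudogenes that held a midpoint carried a symbol of their own in the table, as did 67 of all 4843 pseudogenes. SADHU6-1, SADHU7-2 and SADHU8-1 belong to the Sadhu elements, small non-coding retrotransposons of Arabidopsis. SADHU6-1 (AT3G02515) was at the ceiling of 3100 in both replicates, at chromosome 3, 524686 to 526850, and its region touched GRF7, which encodes a 14-3-3 protein. SADHU7-2 (AT3G31442), which overlaps the pseudogene AT3G31440, scored 596.2 and 490.2 in its region, at chromosome 3, 12803803 to 12804970. SADHU8-1 (AT1G50735) scored 168.6 and 206.6 at chromosome 1, 18806203 to 18807929. The remaining named locus was RLP18 (AT2G15040), a transcribed pseudogene of a receptor-like protein, where the region (chromosome 2, 6507534 to 6509332) scored 224.4 and 214.2.

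The table names 16 Sadhu loci in all, and they differed widely. A peak lay on the body of 6 of them in replicate 1 and of 7 in replicate 2, and 6 were touched by a common region. The loci outside the set with a touching common region, named after their values were seen, were SADHU10-1, SADHU1-3 and SADHU3-2. SADHU10-1 scored 43.5 in replicate 1 and 46.0 in replicate 2. SADHU1-3 scored 21.4 and 41.7. SADHU3-2 was touched by a region with scores of 59.7 and 44.4, and also by the edge of one with 3108 and 2399, whose peak reached the body in replicate 2 but not in replicate 1. Neither had its midpoint in the locus. The names of the table therefore do not group the regions further: of the pseudogenes with a midpoint, 291 had no name from which a class could be read. None of the 6 Mutator-type or MUSTANG loci, which derive from DNA transposons, held one, a number too small to read against the 6.09% of all pseudogenes that did.

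Width followed score among the regions. The best peak had a median width of 1214 bp in replicate 1 (quartiles 862.3 and 1792) and 1346 bp in replicate 2 (quartiles 876.5 and 1869). In protein-coding genes the medians were 1657 bp and 1860 bp, and in high-scoring regions without an annotated gene 1203 bp and 1410 bp. Spearman's rho between width and score was 0.61 in replicate 1 and 0.61 in replicate 2 for regions in pseudogenes, 0.56 and 0.60 for those without an annotated gene, and 0.34 and 0.41 in protein-coding genes. For the 91 low-scoring regions in pseudogenes, whose scores were all under 100, it was -0.14 and -0.03. Width and score come from the same peak, so this is a description. The 53 regions at the ceiling in both lists had best peaks with a median of 2344 bp and 2664 bp, and the 26 regions with a lower score under 150 had 992.5 bp and 945.5 bp.

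The widest region lay in AT2G15410 on an arm of chromosome 2 (6716557 to 6729157, 12601 bp), where replicate 1 had 2 peaks and replicate 2 had 1. A neighbour of this pseudogene is NRPE3B, for a subunit of RNA polymerase V, an enzyme of RNA-directed DNA methylation. The region in AT1G20390 followed with 11338 bp and spanned 2 peaks in each list. It reached into the protein-coding genes on both sides. The third was in AT3G17050 (chromosome 3, 5813626 to 5818759, 5134 bp), next to HCF107, a gene for a factor of chloroplast RNA maturation. All 3 were on arms and at the ceiling in both lists. The regions in AT2G15410 and AT3G17050 also touched a protein-coding body, of AT2G15420 and AT3G17060 respectively.

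At the other end was a group of very narrow peaks. In 28 regions (8.81%, exact 95% interval 5.93 to 12.5) the best peak was under 600 bp wide in both lists, a limit chosen after the widths were seen. None of the 300 high-scoring regions in protein-coding genes was so narrow, which allows a share of up to 1.22%, while 16 of the 301 without an annotated gene were (5.32%, interval 3.07 to 8.49). Of the 91 low-scoring regions in pseudogenes, 10 were (11.0%, interval 5.4 to 19.3). The 28 scored from 119.9 to 1570 in replicate 1, with a median of 351.1, and from 100 to 1249 in replicate 2, with a median of 249.7. Both medians were below those of all 318 regions, and none of the 28 reached the ceiling. Of the 28, 19 lay in gene-poor windows and 9 on arms. The narrowest regions were in AT2G11750 (chromosome 2, 4711126 to 4711502, 377 bp, scores 375.0 and 265.9), AT1G37200 (chromosome 1, 14205656 to 14206108, 453 bp, scores 128.8 and 117.1) and AT4G06488 (chromosome 4, 3107533 to 3108007, 475 bp, scores 327.7 and 310.6). The highest-scoring narrow region, picked after its values were seen, was in AT3G47230 (chromosome 3, 17393076 to 17393639), with scores of 1570 and 1249. The adjacent pseudogene AT3G47240 held another of these narrow regions (17394037 to 17394531), with scores of 461.2 and 479.0.

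**Figure D2:**
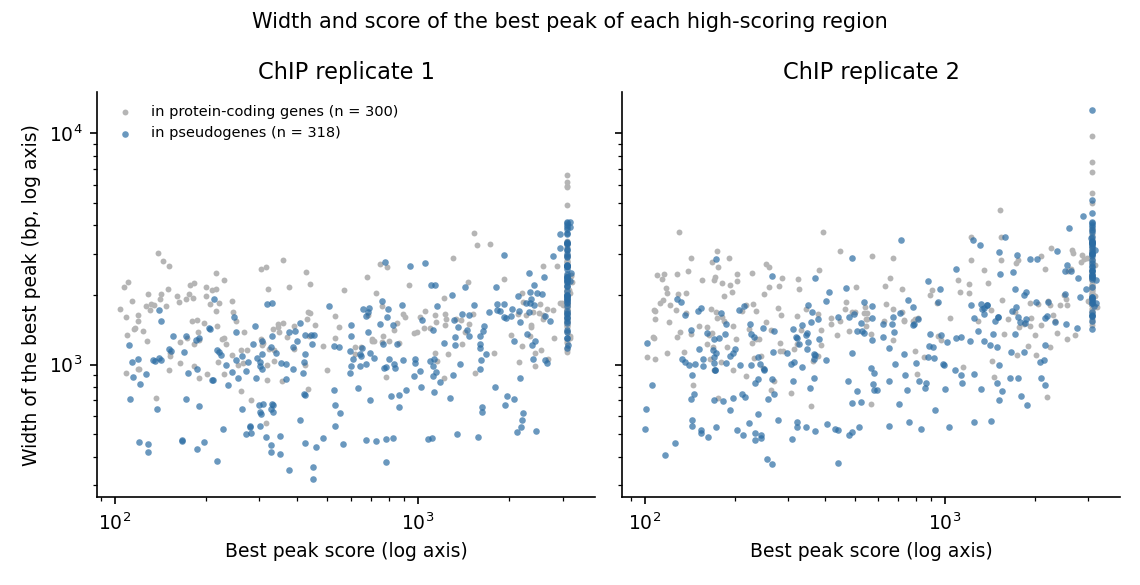
Width of the best peak in bp against its score, both on log axes, in ChIP replicate 1 (left) and replicate 2 (right). Blue points are the 318 high-scoring regions in pseudogenes and grey points the 300 in protein-coding genes. Below 600 bp in both lists, a limit chosen after the widths were seen, lie 28 blue and 0 grey regions. The blue points widen towards the ceiling of 3100.

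Most regions lay where genes are sparse. The genome was cut into 121 windows of 1 Mb, and 20 with fewer protein-coding genes than 50% of the median (259) were called gene-poor, the others arms. The gene-poor windows held 226 of the 318 regions (71.1%, exact 95% interval 65.7 to 76.0). The share was 14.0% for high-scoring regions in protein-coding genes, 49.5% for those without an annotated gene and 60.4% for low-scoring regions in pseudogenes. By chromosome it ran from 54.0% of 63 regions on chromosome 4 to 86.1% of 72 on chromosome 3. Of the 92 regions on arms, 60 (65.2%) were within 2 windows of a gene-poor block, and 62 of the 121 windows held none. Pseudogenes were also denser near the blocks, and many of the windows without a region held few of them. Over all chromosomes, 397 and 322 pseudogenes lay 2 to 3 Mb to either side of the block centres. At 4 to 5 Mb there were 60 and 72. How far the counts of regions follow this layout was not tested.

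Pseudogenes themselves lay mostly in gene-poor windows, at 3027 of 4843 (62.5%), a lower share than the 71.1% of the regions. Of all 4843 pseudogenes, 295 held the midpoint of a region (6.09%), against 308 of 27444 protein-coding genes (1.12%) that held a high-scoring midpoint. These shares are set by the rule and are given as the background. In gene-poor windows 211 of 3027 pseudogenes held one (6.97%, exact 95% interval 6.09 to 7.94), and on arms 84 of 1816 (4.63%, interval 3.71 to 5.69). For low-scoring regions the shares were 1.82% and 1.98%. In protein-coding genes the high-scoring share was 3.21% in gene-poor windows and 1.02% on arms. Pseudogenes with a region had pseudogenes on both sides in 67.8% of cases in gene-poor windows, as did 67.8% of the pseudogenes without one, counting protein-coding genes and pseudogenes as neighbours. On arms these shares were 19.0% (interval 11.3 to 29.1) and 15.5% (13.9 to 17.3).

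**Figure D3:**
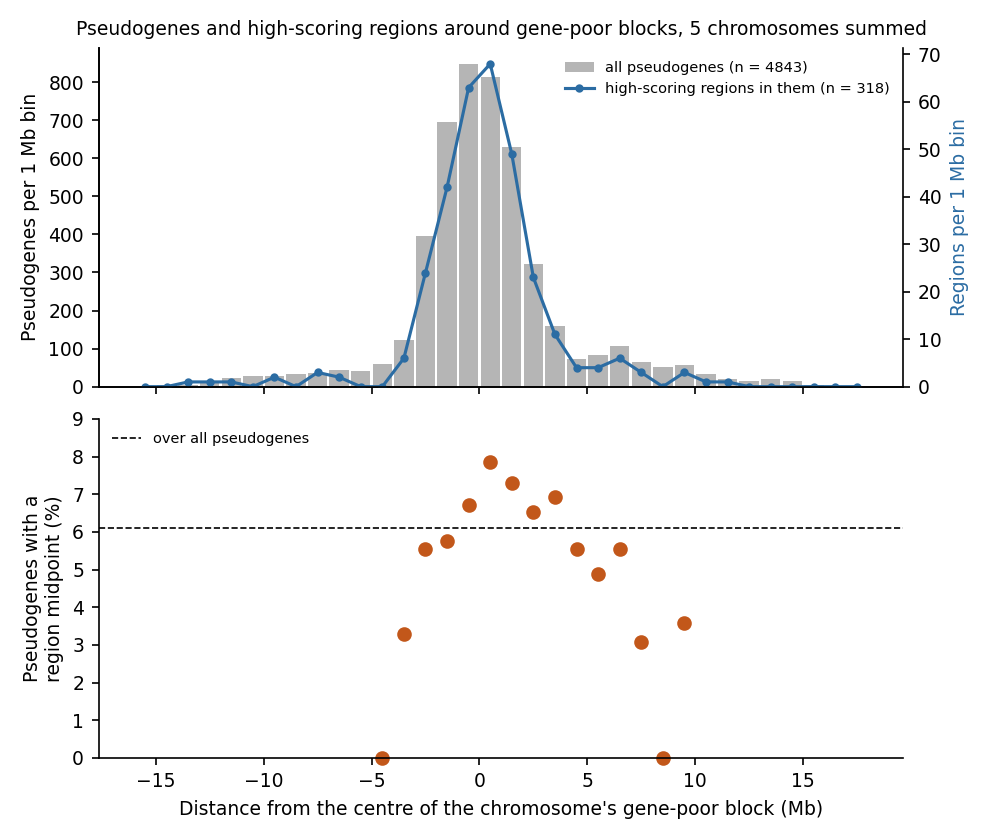
Distance in Mb from the centre of each chromosome's gene-poor block, in bins of 1 Mb summed over 5 chromosomes. The upper plot shows all 4843 pseudogenes (grey bars, left axis) and the 318 regions (blue, right axis), and the lower plot the percentage of pseudogenes with a region midpoint in the 15 bins with at least 50 pseudogenes. Both counts peak at the block centre, and the percentage there is 6.72 and 7.86, with the dashed line at 6.09 over all pseudogenes.

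On the arms of chromosome 4, 26 of 357 pseudogenes held a region (7.28%, exact 95% interval 4.81 to 10.5), while on the other arms the share ran from 3.57% to 5%. These intervals overlap, and no test was made. The windows from 1 to 3 Mb of chromosome 4, next to its gene-poor block, held 19 of the regions there. These windows were also rich in pseudogenes, with 86 and 101. Of these, 8.14% and 8.91% held a region, near the 7.28% of all arms of this chromosome. The window from 11 to 12 Mb, farther from the block and picked after its values were seen, had 5 of 23 (21.7%). The short arm of this chromosome is known for a heterochromatic knob in Col-0, and whether these windows cover it was not tested. At the start of chromosome 2, AT2G01029 held 3 regions, the most of any pseudogene. They lay at 28799 to 29949 (scores 341.2 and 297.0), 30349 to 31360 (232.1 and 242.0) and 37020 to 37970 (420.7 and 250.5). The same window holds the ribosomal RNA genes AT2G01010 and AT2G01020 in the table, and this end of the chromosome is known for a ribosomal DNA array.

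The annotation separates pseudogenes from transcribed pseudogenes by a label. What the label rests on was not examined here. Whether the labels also divide loci of transposable elements from others was not tested. Of the 318 regions, 290 were in a pseudogene and 28 in a transcribed one. On arms, 77 of 1159 pseudogenes held a region (6.64%, exact 95% interval 5.28 to 8.23), but 7 of 657 transcribed pseudogenes did (1.07%, interval 0.429 to 2.18). In gene-poor windows the shares were 7.11% of 2758 (6.18 to 8.13) and 5.58% of 269 (3.15 to 9.03). Transcribed pseudogenes were shorter: those without a region had a median length of 765 bp, and other pseudogenes without one 1951 bp.

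Longer pseudogenes held a region more often. Pseudogenes with a midpoint had a median length of 3315 bp and those without 1577 bp. A longer body offers more positions to a midpoint, so part of this is built into the rule. In the shortest of 4 equal length classes of pseudogenes (up to 756 bp), 17 of 1213 held a region (1.4%), and in the longest class (over 3111 bp) 156 of 1210 did (12.9%, exact 95% interval 11.1 to 14.9). On arms the share did not rise between the middle classes, at 3.69% and 3.49%. In the longest class the shares were 13.3% in gene-poor windows and 12.1% on arms. There 9 of 42 transcribed pseudogenes (21.4%, interval 10.3 to 36.8) and 147 of 1168 other pseudogenes (12.6%, interval 10.7 to 14.6) held a region, while in each of the shorter classes the share of transcribed pseudogenes was the lower one.

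**Figure D4:**
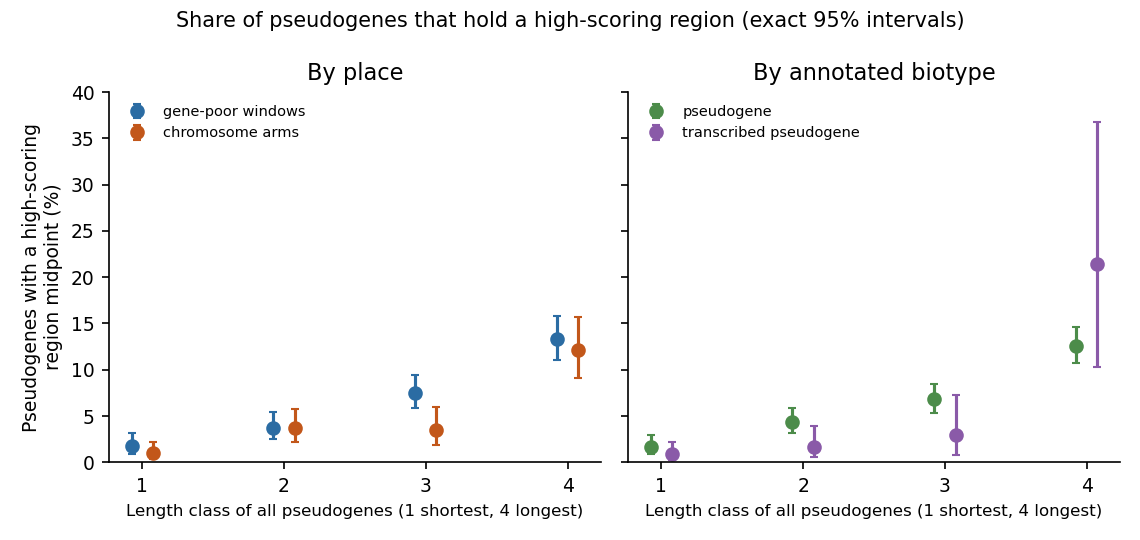
Percentage of pseudogenes that held the midpoint of a high-scoring region, by class of pseudogene length (4 classes of equal size, 1 shortest), split by place (left) and annotated biotype (right). Bars are exact 95% intervals for counting error only. The share rises from the shortest class (1.4% over all pseudogenes) to the longest (12.9%).

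Some regions shared a pseudogene. Of the 295 pseudogenes, 23 held more than 1 midpoint, and 47 regions lay in these. AT1G40101 held regions at chromosome 1, 15063530 to 15064075 (scores 217.0 and 144.1) and 15068768 to 15069984 (647.1 and 400.3). AT1G43444 held regions at 16384520 to 16385409 (366.6 and 367.7) and 16385983 to 16386537 (728.0 and 404.7). In AT1G47860 the second region, at 17627282 to 17630846, scored 2263.5 and 1591, below the one at the ceiling. In AT1G60020, next to NAT7 of the nucleobase-ascorbate transporter family, the second, at 22103904 to 22104966, scored 141.6 and 133.0. Regions within one pseudogene could thus differ from the ceiling to near the limit, in both replicates alike.

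Another region of the set lay within 10 kb of 123 regions (38.7%), and the median distance to the nearest one was 19.3 kb. Among high-scoring regions without an annotated gene, 25.6% had another of their kind so near, and in protein-coding genes 8.33%. Of the low-scoring regions in pseudogenes, a smaller set of 91, 8.79% did. Pseudogenes themselves lay mostly in gene-poor windows, and the part of their own spacing in that of the regions was not tested. The tightest run of 5 spanned 24.0 kb of chromosome 3 (15575424 to 15599425), with scores of 111.9 to 3100 in replicate 1 and 225.5 to 3100 in replicate 2. In it, AT3G43680 was at the ceiling in both lists. AT3G43681 held a region with scores of 2112 and 1553.5 and another with 111.9 and 233.7. AT3G43684 scored 2333 and 1715, and AT3G43690, next to BPM6, scored 205.0 and 225.5. The other run spanned 29.4 kb of chromosome 5 (11043001 to 11072436). There AT5G29020 was at the ceiling, its neighbour AT5G29022 was among the regions nearest the limit, and AT5G29024 scored 937.8 and 360.2. AT5G29030, a transcribed pseudogene, held a region with scores of 882.9 and 751.5 and another with 422.6 and 311.8. Both runs lay in gene-poor windows, and each mixed ceiling regions with regions near the limit.

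Position also went with score among the regions themselves. On arms the median score was 1161 in replicate 1 and 1013 in replicate 2, and in gene-poor windows 821.0 and 674.1. The ceiling was reached in both lists by 26 of the 92 regions on arms (28.3%) and by 27 of the 226 in gene-poor windows (11.9%). Best peaks on arms had a median width of 1436 bp in replicate 1 and 1591 bp in replicate 2, against 1175 bp and 1267 bp in gene-poor windows. The direction was the same in both replicates. The same regions were chosen by both scores, which had a rho of 0.97, so this is no separate support. The regions are not replicates of a condition, and how reads of repeated sequence were placed is not given in the sources used here, so the part of read placement in these differences was not tested.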

How the data were processed

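Peak lists of 2 SHL ChIP samples were analysed; 2 input samples were not analysed here. Bowtie2 2.2.8, SAMtools 1.3, MACS 1.4 and the TAIR10 build are named per the submitters' processing notes; settings, filters and the control given to the caller are not given in the sources used here. Peaks were deposited per sample. The score of each peak is the authors' own; no header states its unit, and MACS 1.4 usually writes a p-value as 10 times -log10. No read counts were used, so depth is unknown, and intervals (exact Clopper-Pearson) cover counting error only.

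Peaks on the 5 nuclear chromosomes were merged with Python 3.11.15, pandas 2.3.3 and SciPy 1.17.1. Merging and placement were checked on simulated peaks. Genes came from the RefSeq table of TAIR10.1 (27444 protein-coding genes, 3917 pseudogenes and 926 transcribed pseudogenes on these chromosomes), whose positions were taken to match TAIR10 and whose coordinates are not printed. With midpoints shifted, the 318 regions became 300 at -1500 bp, 271 at 1500 bp and 256 at 3000 bp, so the match rests on a modest maximum.

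Members and lists were chosen with earlier results of these data known. No test was run: regions are not replicates, and the samples form 1 group. Named were the 10 regions ranked highest by the lower of both score percentiles (ties by position), the first of each chromosome, those nearest the limit on either side, the 3 widest and narrowest, up to 5 pseudogenes with several midpoints, those with a symbol, and the 2 tightest runs of 5. Planned classes by words in gene names could be read for few loci. Alternatives were other score limits, overlaps and positions, each replicate alone and no ceiling regions. Sequences were not used here.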

Additional observations from a re-analysis of the deposited data

Results flagged for a closer look

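Outside the nuclear regions, the lists also held peaks on the mitochondrial chromosome, 10 in replicate 1 and 7 in replicate 2, with no expected number to set them against. Of these, 8 in replicate 1 and 5 in replicate 2 scored at least 100, and the highest score was 3100 in both lists. They entered no comparison above.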

How the results depend on the processing

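Of 24 values recomputed for the number of regions, their share of the high-scoring regions and their share in gene-poor windows, 22 stayed within 1.5 times (counts) or within the 95% interval (shares). The exceptions were the share of high-scoring regions that lay in pseudogenes, which was 31.0% with a score limit of 50 and 40.6% when any overlap with a pseudogene and none with a protein-coding body was asked for, against 34.1%. With replicate 2 or replicate 1 alone the regions numbered 340 and 348, the share of high-scoring regions was 33.8% and 32.9%, and the share in gene-poor windows was 70.9% and 71.6%. Of 38 recomputed values of the other measures, 6 moved. The share with another region within 10 kb was 28.9% with a limit of 200, against 38.7%. The median region width, 1483.5 bp, was 1575 bp with that limit, 1284 bp without ceiling regions, and 1309 bp and 1178 bp as peak width in replicate 2 or 1 alone. The share made of 1 peak in each list was 100% under a reciprocal overlap of 50%. No paired analysis was possible because only the ChIP group had files and no test was made. Depth limits what cannot be seen here: a pseudogene without a peak may still be bound.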
